A study of Drosophila melanogaster with 8 samples.

Results

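The insulin pathway genes examined here were 9 genes chosen by function: InR, chico, Lnk, Pi3K92E, Pi3K21B, Pdk1, Akt, sgg and foxo, out of 13945 annotated protein-coding genes of the main chromosome arms. A gene was called bound when the deposited table of KDM5 target genes held a row for it, and unbound when it held none. All 9 were found in the annotation by symbol and FlyBase ID, and Akt stood in the table under its older name Akt1. Binding was measured by targeted DamID (TaDa), in which a protein fused to the bacterial Dam methylase marks GATC sites near which it sits, in comparison with Dam alone. The 2 groups were larvae with tub-Gal80[ts], spok-Gal4 and either UAS-LT3-damkdm5 or UAS-LT3-dam, with 4 samples each of 100 pooled wandering larvae of the third instar. Both groups carried the same driver and Gal80 repressor, and eggs were collected over 24 h and kept at 18°C for 5 days and at 29°C for 2 days, where Gal80[ts] no longer holds back expression. The study calls these animals wild-type, and the genotypes given name no Kdm5 mutation. The fusion is thus taken as added to the animals' own KDM5. Whole larvae were homogenized, so that confinement to the prothoracic gland rests on where spok-Gal4 is active, and TaDa gives no expression values by which the cell type could be checked.

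Insulin-like peptides bind the receptor InR, a tyrosine kinase at the cell surface. Through the adaptor Chico the receptor recruits a phosphoinositide 3-kinase made of the catalytic subunit Pi3K92E and the regulatory subunit Pi3K21B, whose lipid product brings Pdk1 and Akt together at the membrane. Akt phosphorylates and thereby restrains the transcription factor Foxo and the kinase Shaggy (sgg). In the prothoracic gland this pathway couples nutrition to the making of ecdysone and to growth of the gland's cells. KDM5 is a histone demethylase that acts on methylated lysine 4 of histone H3 and also regulates transcription by other means.

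KDM5 bound 8 of the 9 insulin pathway genes, and Lnk alone was unbound. Over all protein-coding genes 5362 of 13945 were bound (38.5%). The highest binding score lay at foxo (8.48), followed by Pdk1 (7.56), Pi3K92E (5.61), InR (5.42), sgg (5.40), Pi3K21B (5.26), chico (3.40) and Akt (3.15). The binding score is the value the authors gave each peak relative to Dam alone, and a gene takes the score of its highest peak. The sources do not say if it averages a peak or takes its top value, and the member peaks compared by it were 883 to 4080 bp wide. The median over the 8 bound members was 5.41 and that over all bound protein-coding genes 4.76, with quartiles of 3.46 and 6.22. The scores of foxo and Pdk1 thus lay above the quartiles, those of chico and Akt below them and the other 4 between them. Only 1 profile averaged over the 4 replicates was deposited in the tables used here, so no score has a replicate error. Neighbours in this order, such as InR and sgg, could not be told apart.

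The members were longer than most genes, which bears on how often a gene is bound. Their median length was 7354 bp, and that of all protein-coding genes 2166 bp. The share of bound genes was 27.3% below 2 kb, 46.0% from 2 to 5 kb, 55.3% from 5 to 10 kb, 52.1% from 10 to 20 kb and 42.8% at 20 kb and longer. chico and Lnk fell into the second of these classes, Pi3K92E, Pi3K21B and Akt into the third, Pdk1 into the fourth, and InR, sgg and foxo into the last. The part of gene length in the count of 8 of 9 was not tested.

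**Figure D1:**
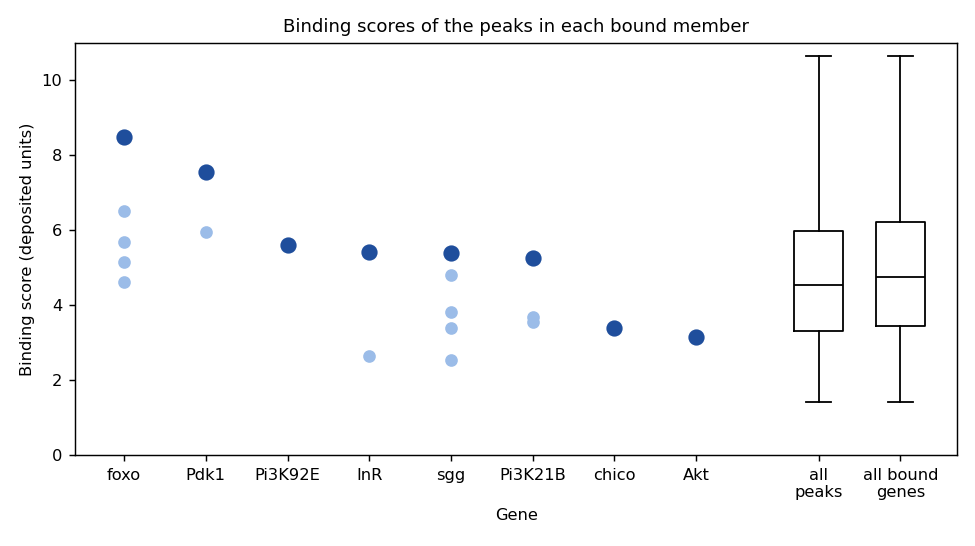
Binding score (y axis, in the units of the deposited tables) of each peak in the 8 bound members (x axis). Dark points are the highest peak of a gene and light points its other peaks; boxes give the median and quartiles, and whiskers the full range, of all 4931 peaks and of the 5362 bound protein-coding genes. The highest peaks of foxo (8.48) and Pdk1 (7.56) lie above the upper quartile of bound genes (6.22), and those of chico (3.40) and Akt (3.15) below the lower quartile (3.46).

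The receptor gene InR (FBgn0283499; 3R, 21570248 to 21619321, minus strand, dm6) held 2 peaks, both wholly in introns. The higher (3R, 21615745 to 21617669, score 5.42, FDR 1.77e-14) began 1367 bp downstream of the second of 4 annotated starts. The false discovery rate (FDR) is the authors' value per peak. The lower (3R, 21581315 to 21584409, score 2.66, FDR 1.09e-05) lay 5782 bp downstream of the innermost start. No start of InR had a peak within 1 kb, and 31335 bp between the peaks held none. A total of 10.2% of the gene was covered, against a median of 7.72% for bound genes of 20 kb or longer. On the 5′ side the next peak lay 3749 bp beyond the gene at E2f1 (score 2.46), and on the 3′ side the next peak was 195486 bp away. The 300 bases at the centre of the higher peak are shown because the binding at the receptor gene lay in introns and not at a start. Capitals mark matches to the 6 motifs described further on, here the GATC site that Dam methylates.
InR higher peak, centre (chr3R:21616557-21616856, minus strand, 300 of 300 bases in a peak): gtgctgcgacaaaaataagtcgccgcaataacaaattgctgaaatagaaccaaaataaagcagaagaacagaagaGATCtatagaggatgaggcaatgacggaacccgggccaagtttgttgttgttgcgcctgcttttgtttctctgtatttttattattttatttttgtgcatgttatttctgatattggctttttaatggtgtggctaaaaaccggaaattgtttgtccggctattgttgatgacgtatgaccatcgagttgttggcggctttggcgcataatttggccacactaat

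The adaptor genes differed from each other. chico (FBgn0024248; 2L, 10242512 to 10247078, minus strand), the fly insulin receptor substrate, held 1 peak (2L, 10242799 to 10245287, score 3.40, FDR 1.76e-10) in its 3′ part, 1791 bp from its only start. Of the 2489 bp of this peak 2133 bp were coding and 356 bp intronic, and it covered 54.5% of the gene. The antisense RNA asRNA:CR44995 spans the whole of this peak on the other strand and was listed too, and DamID does not tell strands apart. The start of this RNA lies 114 bp from the peak, so the peak is far from the start of chico but near that of another listed gene. Higher peaks lay outside chico on both sides. One at bsk and CG31717 was 1525 bp upstream of its start (score 5.55), nearer to the start than the peak inside chico, and one at me31B was 1244 bp beyond its 3′ end (4.44).

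Lnk (FBgn0028717; 3R, 25888542 to 25893270, plus strand), which encodes an SH2B adaptor of the receptor, was not listed and held no peak. The nearest peak was at Tsp96F, 8985 bp upstream (3R, 25877251 to 25879557, score 4.55), and the next on the other side was at gro, 152481 bp downstream (score 2.18). Lnk lay in a stretch of 166193 bp with no peak (3R, 25879558 to 26045750), which held 27 protein-coding genes entire. Of 4925 stretches between neighbouring peaks 129 (2.62%) were as long or longer, and the median was 5296 bp. This share counts stretches. It is not the share of genes or bases that lie in such long stretches, which was not computed. GATC sites, which the assay needs, were present: Lnk held 19, or 4.02 per kb, where the median protein-coding gene held 3.89 per kb. The longest GATC fragment touching the gene measured 1192 bp. Whether these fragments held usable signal was not tested.

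The genes of both subunits of the lipid kinase had a peak within 1 kb of each annotated start, and only the outer start of Pi3K21B was covered. Pi3K92E (FBgn0015279; 3R, 20628972 to 20634732, minus strand) held 1 peak (3R, 20633064 to 20634685, score 5.61, FDR 7.10e-15) that began 47 bp downstream of its only start and covered 750 bp of 5′ UTR, 459 bp of coding sequence and 413 bp of intron. The next peak upstream lay outside the gene at Lrrk, 1314 bp away (score 4.63). Pi3K21B (FBgn0020622; 2L, 297880 to 305233, plus strand) held 3 peaks that together covered 60.9% of the gene, more than in 96.0% of the bound genes of 5 to 10 kb. The first (2L, 297059 to 298751, score 5.26) lay over the outer start, with 821 bp outside the gene and 391 bp over the 3′ end of Stip1. The second (2L, 299860 to 301536, score 3.69) ended 170 bp before the inner start, and the third (2L, 302465 to 304396, score 3.55) ran through 1737 bp of 3′ UTR. It was the only one of the 20 member peaks that overlapped a 3′ UTR of its gene. The 3 peaks shared an FDR of 3.36e-19. No row of the table with IDs matched Stip1, a chaperone gene, but the authors' list of names per peak held Hop, an older name that Stip1 shares with the JAK gene hop, at the scores of this peak (5.26) and of one inside Stip1 (5.39).

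The promoters of Lnk and Pi3K92E are shown together because they share a motif and only Pi3K92E was a bound gene. Neither window lies in a peak, and the peak of Pi3K92E begins 47 bp downstream of its start. The sequences run from 270 bases before to 30 bases from the start, in the direction of transcription, and are taken from the Release 6 genome (dm6). Capitals mark GATC, the core of the DNA replication-related element (DRE, ATCGATA) and a forkhead sequence (GTAAACA), on either strand. The DRE is the site of the promoter factor DREF at many housekeeping genes, and the forkhead sequence is the core of the element that Foxo binds.
Lnk promoter (chr3R:25888272-25888571, plus strand, 0 of 300 bases in a peak): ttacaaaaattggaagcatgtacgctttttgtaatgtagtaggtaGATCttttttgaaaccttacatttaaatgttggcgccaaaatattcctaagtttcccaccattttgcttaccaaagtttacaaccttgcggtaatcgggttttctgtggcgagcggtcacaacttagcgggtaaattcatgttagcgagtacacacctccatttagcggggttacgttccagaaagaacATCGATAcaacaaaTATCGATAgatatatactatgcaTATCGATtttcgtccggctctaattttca
Pi3K92E promoter (chr3R:20634703-20635002, minus strand, 0 of 300 bases in a peak): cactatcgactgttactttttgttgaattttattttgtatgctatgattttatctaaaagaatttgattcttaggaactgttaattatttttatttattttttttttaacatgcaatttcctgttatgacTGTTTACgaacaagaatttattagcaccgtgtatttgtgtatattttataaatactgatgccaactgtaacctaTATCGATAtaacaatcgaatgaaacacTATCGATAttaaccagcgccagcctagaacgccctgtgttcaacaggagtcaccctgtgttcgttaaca

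Lnk held 3 stretches that match the DRE core and Pi3K92E held 2. Of the promoters at the outermost start of each protein-coding gene 18.4% held at least 1. A DRE core was thus found at a bound and at an unbound member, in both cases outside a peak.

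Among the kinases, Pdk1 had the highest score. Pdk1 (FBgn0020386; 3L, 129450 to 145895, plus strand), which activates Akt, held 2 peaks with an FDR of 1.38e-18 each. The first (3L, 130415 to 133534, score 5.94) covered 2 inner starts, at 131812 and 132733, and began 965 bp downstream of the outermost one. It also took in the whole of lncRNA:CR45805. The second (3L, 138649 to 140966, score 7.56) was wholly intronic and ended 100 bp before the start at 141066, the outer of a group of 3 starts further inside the gene. All 6 annotated starts of Pdk1 had a peak within 1 kb, and the higher score lay at the inner group. The promoter at 141066 is shown because the highest Pdk1 peak ends within the window. It is also rich in GAGAG, the sequence bound by the GAGA factor, mostly past the end of the peak. Capitals mark GAGAG and GATC on either strand.
Pdk1 inner promoter (chr3L:140796-141095, plus strand, 171 of 300 bases in a peak): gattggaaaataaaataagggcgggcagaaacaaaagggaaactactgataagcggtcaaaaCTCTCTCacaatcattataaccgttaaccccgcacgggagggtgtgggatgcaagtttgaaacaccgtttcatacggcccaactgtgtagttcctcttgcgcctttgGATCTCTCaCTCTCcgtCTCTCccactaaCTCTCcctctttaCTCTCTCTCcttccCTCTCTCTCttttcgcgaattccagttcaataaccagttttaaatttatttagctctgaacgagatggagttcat

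It held 7 separate stretches of GAGAG, and 1 of these overlaps the GATC site by 1 base. Only the first of the 7 lies within the peak, which ends in that GATC site, and the others lie past its end. At least 1 stretch was present in 41.3% of the 5662 promoters at inner starts of protein-coding genes.

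Akt (FBgn0010379; 3R, 16099228 to 16105670, plus strand), the central kinase of the pathway, had the lowest score of the bound members. Its only peak (3R, 16101009 to 16101891, score 3.15, FDR 6.18e-05) was also the narrowest at 883 bp, 815 bp of which were coding. It lay 249 bp downstream of the inner start, used by 1 transcript, and 1781 bp downstream of the outer start, used by the other 4. A total of 13.7% of the gene was covered, and 22.9% of bound genes of 5 to 10 kb were covered less. The nearest peaks outside Akt lay 23141 bp upstream and 39119 bp downstream.

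sgg (FBgn0003371; X, 2633952 to 2679553, plus strand), the fly glycogen synthase kinase 3, held 5 peaks and 11 annotated starts, 8 of which had a peak within 1 kb. In the direction of transcription the peaks scored 2.53, 3.40, 3.82, 5.40 and 4.81. The highest (X, 2658893 to 2660035, FDR 1.08e-05) was wholly exonic, with 686 bp of coding sequence and 457 bp of 5′ UTR, and began 127 bp downstream of the start at 2658766, which lies 24814 bp inside the gene. The peaks nearest the outermost start were the lowest and had the weakest FDR, 0.00601 for the first and 0.00926 for the second. The second was the widest of all member peaks at 4080 bp and covered 4 starts. The 2 outermost starts, which serve 7 transcripts, had no peak within 1 kb. A total of 23.1% of sgg was covered, more than in 89.2% of bound genes of its length class.

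foxo (FBgn0038197; 3R, 14056945 to 14087978, plus strand), the transcription factor at the end of the pathway, ranked 119th of the 5362 bound genes by score. Its 5 peaks spanned 14489 bp and covered 30.5% of the gene, more than in 95.9% of bound genes of 20 kb or longer. The first (3R, 14057098 to 14058685, score 8.48) began 153 bp downstream of the outer start, covered the inner start and held 698 bp of 5′ UTR. The other 4, at 14059706 to 14061244, 14062708 to 14066246, 14068253 to 14069480 and 14070024 to 14071586, were wholly intronic and scored 6.51, 5.68, 5.14 and 4.62. Within the gene the scores therefore fell with each step away from the start, and the last 16392 bp of the gene held no peak. The first 4 peaks shared an FDR of 1.04e-30, the smallest among the member peaks, and the fifth had 2.01e-05. All 5 scored above the median of all 4931 peaks (4.55). Outside foxo the nearest peaks lay 2485 bp upstream with no gene named (score 5.33) and 2104 bp beyond its 3′ end at Npc2b (5.18). Both scored higher than the foxo peaks of 5.14 and 4.62 and lower than those of 8.48, 6.51 and 5.68. The fall in scores thus did not extend past the gene. The outer promoter and the centre of the fourth peak are shown, the first because the highest peak begins just past it and the second because it was the only member peak centre with a forkhead sequence. Capitals mark matches to any of the 6 motifs, here ATCGATA and GAGAG in the promoter and GTAAACA and GATC in the intron.
foxo outer promoter (chr3R:14056675-14056974, plus strand, 0 of 300 bases in a peak): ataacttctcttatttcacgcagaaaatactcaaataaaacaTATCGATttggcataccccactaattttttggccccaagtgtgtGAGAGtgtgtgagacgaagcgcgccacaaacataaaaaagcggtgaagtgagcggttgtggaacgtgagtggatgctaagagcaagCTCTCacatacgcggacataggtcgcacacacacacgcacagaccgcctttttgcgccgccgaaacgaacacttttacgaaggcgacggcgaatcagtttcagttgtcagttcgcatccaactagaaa
foxo peak 4, centre (chr3R:14068716-14069015, plus strand, 300 of 300 bases in a peak): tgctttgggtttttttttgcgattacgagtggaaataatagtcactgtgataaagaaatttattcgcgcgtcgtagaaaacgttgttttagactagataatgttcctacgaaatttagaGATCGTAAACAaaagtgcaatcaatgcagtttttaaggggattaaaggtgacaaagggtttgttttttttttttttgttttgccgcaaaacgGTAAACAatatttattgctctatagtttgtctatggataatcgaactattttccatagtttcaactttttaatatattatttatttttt

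The centre of the fourth foxo peak held 2 copies of GTAAACA. At least 1 copy was found in 7.81% of the centres of all 4931 peaks.

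**Figure D2:**
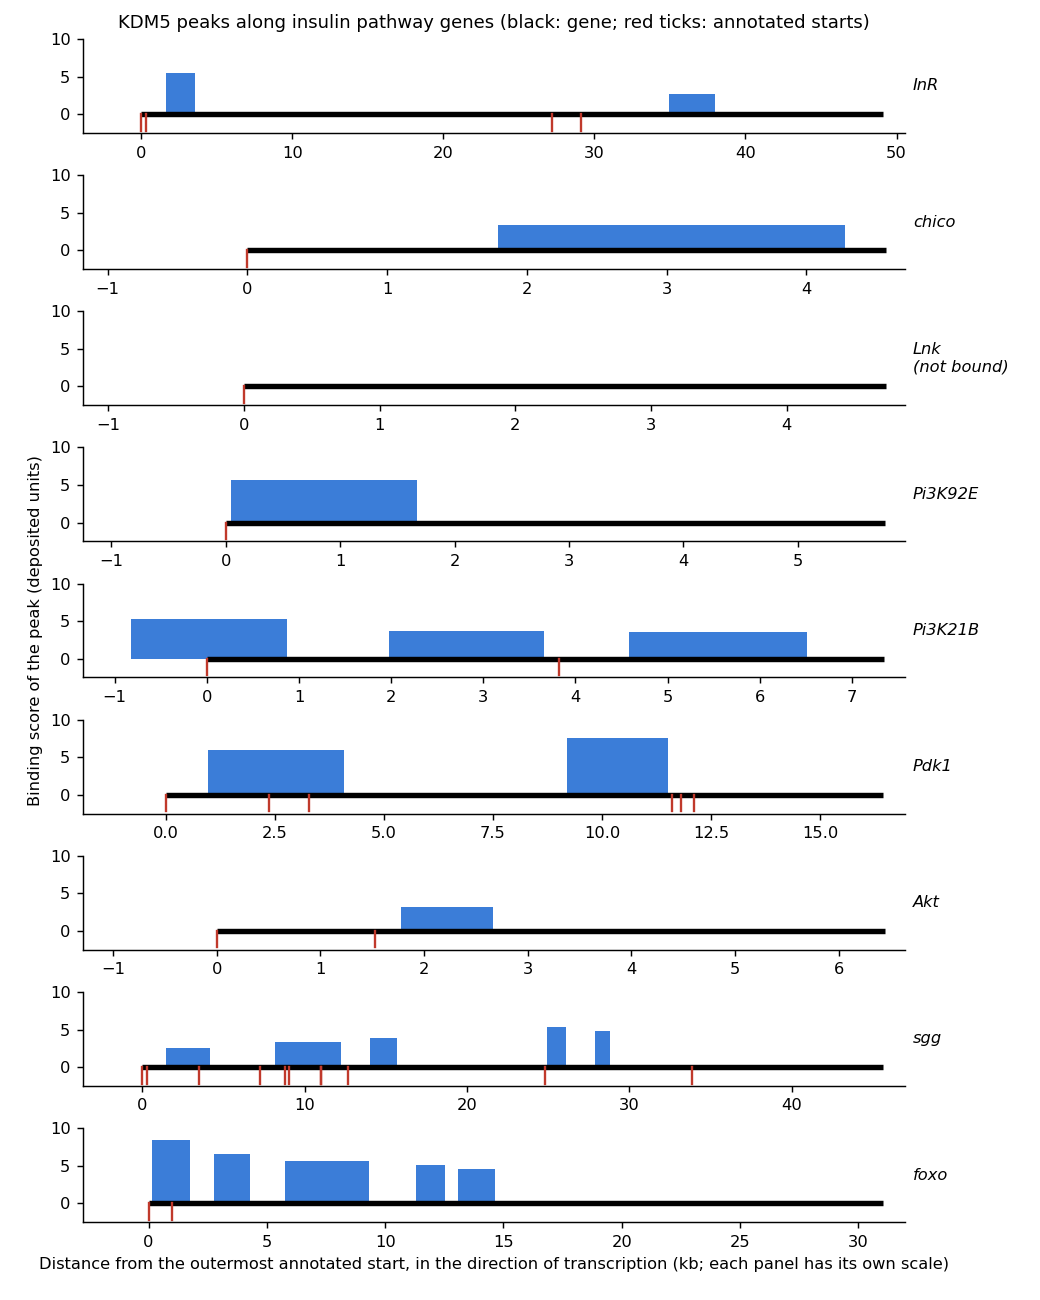
Position and score of KDM5 peaks along the 9 genes. The x axis is the distance in kb from the outermost annotated start in the direction of transcription, with a scale of its own in each panel, and the y axis is the binding score of the peak. Black bars are genes, red ticks annotated starts and blue blocks peaks. In foxo the scores fall from 8.48 to 4.62 away from the start, in sgg the highest peak (5.40) lies at a start 24814 bp inside the gene, and Lnk holds no peak.

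The members held 20 peaks in all, with scores from 2.53 to 8.48 and a median of 4.97, where all peaks had a median of 4.55. Among bound protein-coding genes 21.7% held 2 or more peaks and 0.671% held 5 or more, and the members numbered 5 and 2 of 8. Long genes can hold more peaks, and among bound genes of 20 kb or longer 6.91% held 5 or more. foxo was the only one of 36 bound genes with 5 or more peaks in which the scores fell at every step from the outermost start. This pattern was looked at after the values of foxo were seen. Of the 5 members with several peaks, InR, Pi3K21B and foxo had the highest one nearest the outermost start, and Pdk1 and sgg had it further inside. Over the 1164 bound genes with 2 or more peaks the first was highest in 63.3%.

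The position of the member peaks within genes is given beside that of all peaks, and the shares were not tested against each other. Of the 20 peaks 11 (55.0%) lay within 1 kb of an annotated start of any protein-coding gene, and of all 4931 peaks 81.8% did. Such a start was covered in 5 of 20 and in 42.6% of all peaks. Introns made up 71.6% of the length of the member peaks and 45.4% of all peaks, and coding sequence 10.8% and 28.8%. No coding sequence was present in 12 of 20 member peaks (60.0%) and in 23.8% of all peaks. The long introns of foxo, InR and sgg supplied 8 of the 9 wholly intronic peaks, and the ninth was in Pdk1.

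By gene, 6 of 9 members had a peak within 1 kb of at least 1 start, namely Pi3K92E, Pi3K21B, Pdk1, Akt, sgg and foxo. Of all protein-coding genes 39.9% did. Genes with many starts have more chances to meet this rule. From the outermost start only, 4 of 9 members and 37.6% of all genes met it. A peak over a start was found for 4 members, Pi3K21B, Pdk1, sgg and foxo, and for 20.1% of all genes. Of the 30 annotated starts of the members, 17 of which belong to sgg and Pdk1, 20 had a peak within 1 kb and 9 were covered. Over the 19607 annotated starts of all protein-coding genes these shares were 39.8% and 19.0%. InR and chico were bound without a peak within 1 kb of a start of their own. Akt had a peak within 1 kb of its inner start only, and this peak covered neither start.

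**Figure D3:**
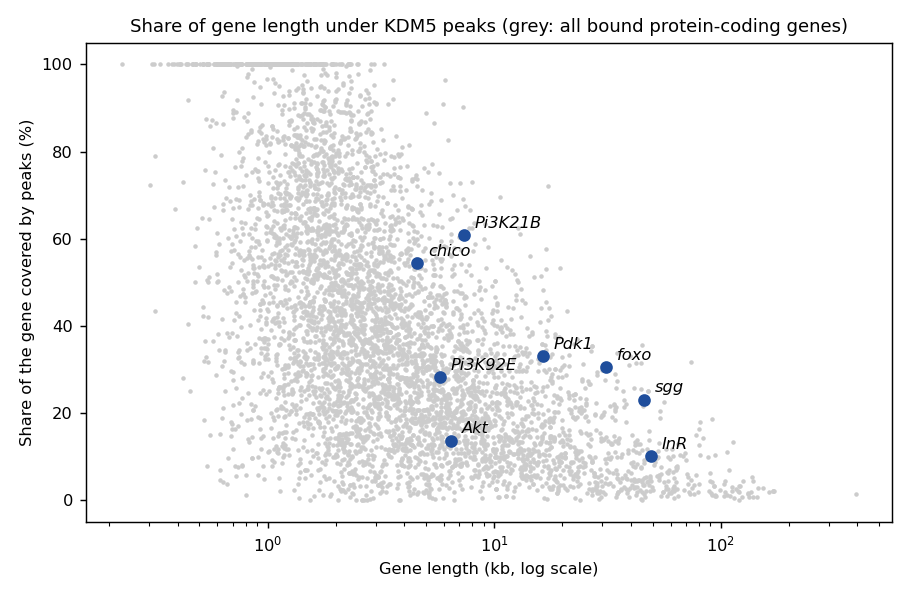
Share of each gene's length under KDM5 peaks (y axis, in %) against gene length (x axis, in kb on a log scale). Grey points are the 5362 bound protein-coding genes and blue points the 8 bound members. foxo (30.5%), sgg (23.1%) and Pi3K21B (60.9%) lie high for their length, and Akt (13.7%) lies low.

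The promoters of the members, the central 300 bases of their peaks and the whole peaks were searched on both strands for 6 short sequences. Besides GATC, the DRE core, the GAGA sequence and the forkhead sequence spelled out above, these were the E-box bound by Myc (CACGTG) and the core of a motif of housekeeping promoters (GTCACAC). Overlapping matches of 1 motif count as 1 stretch. At the outermost starts the DRE core was found in 3 of 9 members (Lnk, Pi3K92E and foxo) and in 18.4% of all genes, and GAGAG in 4 of 9 (chico, Pdk1, Akt and foxo) and in 29.3% of all genes. GTAAACA was found at Pi3K92E only, and in 8.84% of all genes. The E-box and GTCACAC were at none of the 9, and in 3.55% and 8.92% of all genes. Inner starts added further matches. Over all 30 member starts, 17 of them in sgg and Pdk1, GAGAG was found at 15 and the DRE core at 4. GTAAACA was found at 3 (in Pi3K92E, InR and Akt), the E-box at 1 (in sgg) and GTCACAC at none. The shares of the 19607 starts of all protein-coding genes were 32.8%, 16.2%, 8.67%, 3.5% and 8.15%, in the same order. In the peak centres GAGAG was found in 3 of 20 (15.0%) and in 30.8% of the centres of all peaks. This was the lower share for the members, whereas at the outermost starts theirs was the higher. GTAAACA was in 1 of 20 member centres and the DRE core in 0 of 20, and in 7.81% and 4.79% of all centres. The E-box and GTCACAC were also in 0 of 20, and in 3.91% and 2.88% of all centres. Over their whole length, member peaks held GAGAG in 17 of 20, GTAAACA in 9, the E-box in 5, the DRE core in 3 and GTCACAC in 1. The shares of all whole peaks were 79.2%, 33.5%, 20.1%, 22.9% and 15.3%. Member peaks were wider, with a median of 1685 bp beside 1456 bp for all peaks. None of these shares was tested. A match is a run of letters and not a shown binding site, and a missing match says only that these letters are not in the window.

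The wider pathway was taken from lists of ligands, their binding proteins, adaptors, lipid enzymes, and regulators and targets of Akt, Foxo and Shaggy. Of these 46 genes 30 were bound (65.2%, beside 38.5% of all protein-coding genes), with scores from 2.03 to 8.61. Over all genes the share of bound genes changed with length, from 27.3% below 2 kb to 55.3% from 5 to 10 kb. The part of gene length in this count was not tested, and the lists were chosen with earlier results of these data known. The parts of the pathway differed in their counts, from 1 of 8 ligands to 7 of 8 genes for regulators and partners of Akt, and these counts were not tested against each other.

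Of the 8 insulin-like peptide genes only Ilp6 was bound (5.99). The unbound genes, Ilp1 and Ilp2 among them, lay 400 to 28888 bp from the nearest peak, and the closest, Ilp8, the relaxin-like signal of damaged discs, had a peak of 2.39 within 400 bp of its start. The insulin-like peptide genes are short, from 549 to 3166 bp. Ilp1 to Ilp5 all lie on 3L, and each had a nearest peak that scored 1.83. It lay from 28888 bp (Ilp1) to 4041 bp (Ilp5) away. They may thus share 1 stretch without peaks and not be separate cases in the count of ligands. ImpL2, which binds insulin-like peptides and limits their action, was bound (6.21, with a peak over a start), and Sdr, a secreted decoy of the receptor, was not.

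At the receptor, 4 of 6 adaptors and phosphatases were bound, the highest being the tyrosine phosphatase gene Ptp61F (6.02) and the adaptor gene dock (4.41). Lar and Shc were unbound, although peaks outside the genes lay within 175 bp of a start of Lar (2.60) and 29 bp from the end of Shc (7.23). In phosphoinositide metabolism 4 of 5 were bound, led by the class II kinase gene Pi3K68D (8.61) and step, an exchange factor for Arf GTPases (7.22). Pi3K59F, the class III kinase, was unbound.

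Regulators and partners of Akt were bound in 7 of 8 cases. rictor, a subunit of the TORC2 complex that phosphorylates Akt, scored 7.61 with a peak 64 bp from its start, and trbl, an inhibitor of Akt, scored 6.65. Phlpp, an Akt phosphatase, was unbound. For Foxo, 4 of 6 regulators were bound, led by puc (5.84) and bsk (5.55), the phosphatase and the kinase of JNK signaling, while 14-3-3zeta and Sirt1 were not listed. Of 6 genes drawn up as Foxo targets 5 were listed, with Thor, the translational repressor 4E-BP, at 8.26 and srl, the PGC-1 homolog, at 8.05, and the lipase gene Lip4 was unbound. Among substrates of Shaggy and glycogen enzymes 4 of 5 were bound, with the branching enzyme gene AGBE at 6.43 and GlyP, glycogen phosphorylase, at 5.62. Axn was unbound, with a peak of 2.68 that began 5 bp outside it.

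For Sirt1 and Pepck1 the name and the peaks went apart. Sirt1 was not listed, but its body overlapped 3 peaks with a highest score of 5.24. The table held a row submitted as Sir2, an older name of Sirt1, with this score, and gave it the ID of Sirt2, which overlapped no peak. Pepck1 was listed at 5.13 but held no peak, the nearest lying 1968 bp away. Its row was submitted as CG10924, and the neighbouring gene Pepck2, annotated under that number, overlapped 2 peaks with a highest score of 5.13. With both read by their peaks the count stayed at 30 of 46. For the 8 bound members the listed score equalled the highest peak in the gene body in each case.

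**Figure D4:**
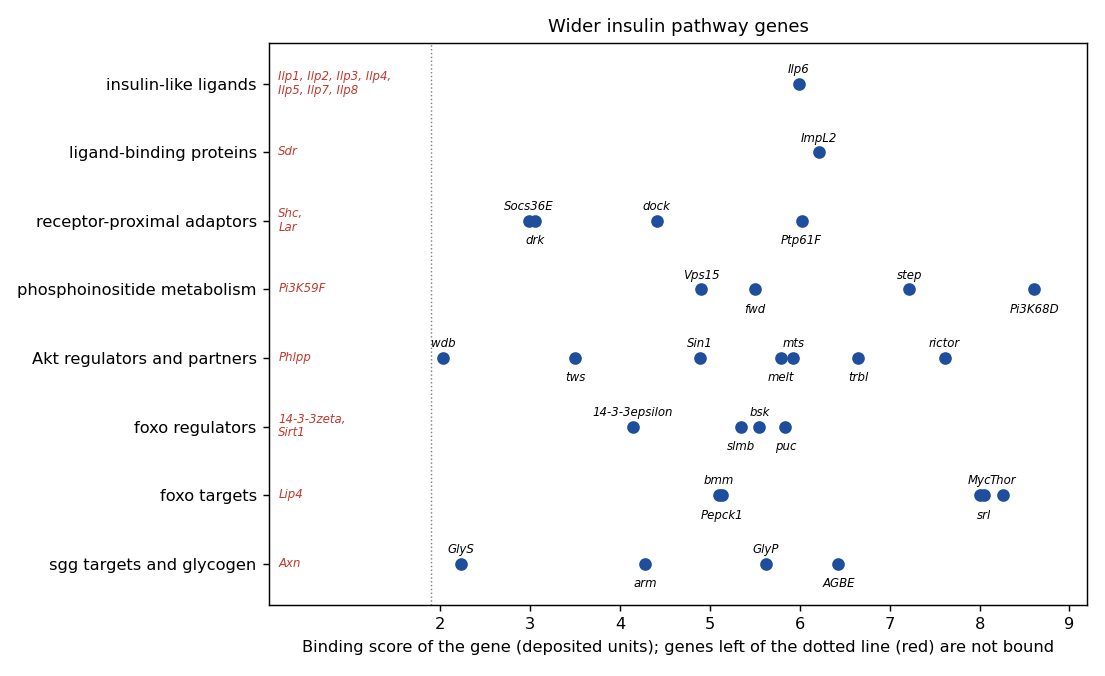
Binding scores of the 46 wider pathway genes (x axis, in deposited units) by list (y axis). Blue points are genes with a row in the deposited table, and genes in red left of the dotted line have none. The bound genes range from wdb (2.03) to Pi3K68D (8.61), and 7 of 8 ligand genes are unbound. Sirt1 and Pepck1 are drawn as the table lists them.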

How the data were processed

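TaDa profiles of KDM5 were made from 4 Dam:KDM5 and 4 Dam samples. Per the study's methods, the authors aligned reads to dm6, ran damidseq_pipeline, averaged the replicates, ran find_peaks (fdr 0.01, min_quant 0.9) on this mean profile and listed overlapping genes with peaks2genes. Tool versions: not given in the sources used here. Binding scores as deposited by the authors are relative to Dam alone, with no log base stated. The other deposited values are the peaks' positions and FDR attributes. The study's methods state a number of reads for sequencing. No values per sample were used, so the depth of each sample is unknown here. All 4931 peak starts and ends lay 1 base past the first base of a GATC site in the Release 6 genome, so positions are those of the deposited peaks in dm6.

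Genes, starts and exons came from Ensembl release 115 (BDGP6.54). Of 5815 IDs, 5799 matched by ID, 9 by symbol and 7 not at all. Distances run from peak edge to start. Overlap meant at least 1 bp, and a peak at a start lay within 1 kb. Python 3.11.15 with pandas 2.3.3 was used, and the overlap functions were tested on simulated data. No significance test was made. The members and lists were chosen with earlier results of these data known. Named wider genes were the 2 highest-scoring bound and the first 2 unbound genes by alphabet of each list. Ilp3 to Ilp5, Ilp8, Pepck1, Pepck2, Sirt2 and wdb were added with their values known. One gene of the lists is not reported here. The alternatives concerned the definition of a bound gene, the peak threshold, the overlap and the window at starts.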

Additional observations from a re-analysis of the deposited data

How the results depend on the processing

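The count of 8 bound members also held with overlap of the gene body, with 1 gene per peak, with FDR below 0.001 and with 50% of the peak required in the body. It was 6 with a peak within 1 kb of a start, where InR and chico dropped out, and 6 with the upper 50% of peaks by score, where chico and Akt dropped out. The share of all protein-coding genes moved with the same rules, to 39.9% with a peak within 1 kb of a start, 29.0% with 1 gene per peak, 20.8% with the upper 50% of peaks, 33.2% with FDR below 0.001 and 27.4% with 50% of the peak in the body. The wider pathway count of 30 ranged from 22 to 30. Members with a peak at a start numbered 6 with a window of 500 bp (32.0% of all protein-coding genes), 8 with 2 kb (47.1%), 4 from the outermost start only (37.6%) and 5 with the upper 50% of peaks (22.3%). The median score of the members became 5.51 over the 6 with a peak within 1 kb of a start, and the 20 member peaks became 12 with the upper 50% of peaks. Causes of these changes were not tested. No paired analysis was possible because the tables hold 1 averaged profile and no column per replicate, and for the same reason no replicate could be left out.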
